A study of Mus musculus with 12 samples.

Results

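The genes described here are 10 ligands and receptors of the tumour necrosis factor (TNF) superfamily that T cells use for costimulation. They were taken by name, by a rule that uses no measured value but was written with earlier results of these data known, and all 10 were found among the 54232 genes of the count table. Of these genes, 5 encode receptors (Tnfrsf4, Tnfrsf9, Tnfrsf18, Tnfrsf21 and Cd27) and 5 encode ligands (Tnfsf4, Tnfsf8, Tnfsf11, Tnfsf14 and Cd40lg). RNA was sequenced from purified naive CD4+ T cells of wild-type (WT) mice and of mice labelled Ddx55-KO. Ddx55 encodes a DEAD-box RNA helicase. The cells came from spleen and a second tissue that the labels give as pLN. They were collected after 0, 8 or 24 h on plate-bound anti-CD3 (5 ug/ml) with anti-CD28 (2.5 ug/ml), antibodies that stand in for antigen and costimulation. The 6 groups of genotype and time had 2 libraries each, 12 in all. The KO allele, how it was made, the cells in which it acts, and the age and sex of the mice are not stated in the labels. Nor do the labels say that replicates came from separate animals, so the p-values below measure the spread between these libraries, which may be technical.

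TNF superfamily ligands are trimers, mostly held on the cell surface, and each binds receptors on the same or a neighbouring cell. Costimulatory receptors such as OX40 (Tnfrsf4), CD137 (Tnfrsf9), GITR (Tnfrsf18) and CD27 recruit TRAF adaptor proteins and turn on NF-kB, which supports survival and division of T cells after the antigen receptor has been engaged. Naive T cells carry CD27 and little OX40 or CD137, and antigen receptor signalling induces most of the others, CD40 ligand (Cd40lg) being the one through which helper T cells instruct B cells.

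Gene counts per library ran from 16810375 to 19126498. Values below are counts per 1000000 (CPM) after scaling of library sizes by TMM (trimmed mean of M values), so that 1 CPM stood for 16.6 to 19.9 counts. Ddx55 itself was lower in every KO library, at 14.4 to 19.5 CPM against 45.3 to 68.7 CPM in the WT libraries. In all groups the T cell identity list (Cd3e, Cd4, Lck and the like) was tested in full, and none of its 19 genes passed the test between KO and WT at 0 h or at 8 h. At 24 h 7 of them were higher in KO and 1 lower. Several lists of markers of other cells had higher sums in KO libraries. Basophil and mast cell markers summed to 325 and 830 CPM in KO at 0 h, 132 and 413 at 8 h, and 188 and 664 at 24 h, against 10.1 to 47.4 in WT, and 3, 1 and 12 of the 13 that could be tested were higher in KO at 0, 8 and 24 h. The mast cell genes Tpsb2 and Mcpt4 were at or below 0.351 CPM in all libraries. Neutrophil and granulocyte progenitor markers summed to 517 and 518 CPM in KO at 0 h against 56.8 and 13.4 in WT, with 10 of 13 higher. Markers of memory-like T cells summed to 490 to 689 CPM in KO at 0 h against 317 to 348 in WT, with 10 of 15 higher. Erythroid and platelet markers overlapped in sum at 0 h (165 to 264 CPM in KO and 108 to 329 in WT) and at 8 h. At 24 h they summed to 35.7 to 60.5 CPM in KO against 6.17 to 15.8 in WT. Of the 9 that could be tested, 3, 1 and 4 were higher in KO at 0, 8 and 24 h. The sum of B cell markers, nearly all of it Ighm, was not higher in KO. It overlapped at 0 h and was 85.2 to 90.8 CPM in KO against 233 to 248 in WT at 24 h.

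The promoters of 4 of these genes are shown as examples of the 2 patterns described below. Tnfrsf9 and Tnfsf14 had the largest increases with stimulation. Among the 8 members with a promoter window, Tnfsf8 and Tnfrsf18 had the largest increases in KO over WT at 24 h. The sequences are RefSeq windows of the GRCm38.p6 build, 250 bases before to 50 bases after an annotated start, read 5′ to 3′ on the gene's strand. Capitals mark matches, on either strand, to a letter pattern for NF-kB (GGGNNTTCC), AP-1 (TGANTCA) or NFAT (GGAAA, or TTTCC on the other strand), 3 families of factors that act downstream of the antigen receptor.
Tnfrsf9, chr4:150927749-150928048, plus strand: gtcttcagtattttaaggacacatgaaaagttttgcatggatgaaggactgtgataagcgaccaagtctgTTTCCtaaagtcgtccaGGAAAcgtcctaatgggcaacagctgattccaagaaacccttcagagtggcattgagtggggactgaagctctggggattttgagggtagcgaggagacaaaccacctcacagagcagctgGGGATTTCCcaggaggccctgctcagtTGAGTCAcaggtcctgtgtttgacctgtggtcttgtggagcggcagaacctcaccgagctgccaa
Tnfsf14, chr17:57194132-57194431, minus strand: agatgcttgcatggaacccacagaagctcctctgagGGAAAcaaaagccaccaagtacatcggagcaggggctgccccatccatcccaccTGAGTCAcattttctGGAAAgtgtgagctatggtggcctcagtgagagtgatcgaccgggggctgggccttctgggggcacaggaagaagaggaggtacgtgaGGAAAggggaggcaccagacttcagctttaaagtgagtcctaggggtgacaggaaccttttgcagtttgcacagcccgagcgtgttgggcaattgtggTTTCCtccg
Tnfsf8, chr4:63861235-63861534, minus strand: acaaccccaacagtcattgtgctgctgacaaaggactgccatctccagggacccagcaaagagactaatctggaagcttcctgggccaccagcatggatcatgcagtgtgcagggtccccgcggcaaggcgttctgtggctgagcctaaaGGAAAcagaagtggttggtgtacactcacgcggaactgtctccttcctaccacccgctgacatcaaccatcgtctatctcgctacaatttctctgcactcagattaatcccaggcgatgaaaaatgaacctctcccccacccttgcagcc
Tnfrsf18, chr4:156026072-156026371, plus strand: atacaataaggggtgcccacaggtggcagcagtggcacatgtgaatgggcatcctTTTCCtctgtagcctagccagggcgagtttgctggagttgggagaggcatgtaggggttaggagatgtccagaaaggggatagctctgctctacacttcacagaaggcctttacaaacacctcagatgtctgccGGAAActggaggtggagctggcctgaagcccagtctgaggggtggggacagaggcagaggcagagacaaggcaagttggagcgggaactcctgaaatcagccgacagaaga
The Tnfrsf9 window held the only NF-kB match among the members, GGGATTTCC at -42 from the start, in which the last 5 letters are also an NFAT match, and an AP-1 match, TGAGTCA, at -15. A second Tnfrsf9 window held NFAT matches only. The Tnfsf14 window held TGAGTCA at -160 and 4 NFAT matches, at -214, -145, -57 and 41. Windows were found for 8 of the 10 members (not for Tnfsf4 or Cd40lg). An NF-kB match was present in 1 of the 8, an AP-1 match in 2, and an NFAT match in all 8. Of the 32851 windows of this length in the same table, 5.82% held an NF-kB match, 7.81% an AP-1 match and 61.3% an NFAT match. A match is a run of letters, and binding was not measured.

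Stimulation of WT cells raised all 10 genes between 0 and 8 h, when 28.3% of the 15679 tested genes were called higher and 33.6% lower (adjusted p under 0.05 over all of them). The receptor Tnfrsf9 stood at 9.80 and 9.09 CPM at 0 h, 630 and 563 CPM at 8 h, and 110 and 112 CPM at 24 h. This was a rise of 5.98 ± 0.161 on the log2 scale (SE, adjusted p = 1e-12) followed by a fall of 2.43 ± 0.131 (adjusted p = 1.86e-09), with no overlap between times. Tnfsf14 encodes LIGHT, a ligand of HVEM and of the lymphotoxin beta receptor. It went from 0.709 and 0.903 CPM to 87.1 and 73.0 CPM at 8 h and 44.4 and 43.7 CPM at 24 h. Its 0 h libraries held only 12 and 15 counts, so the log2 increase of 6.62 ± 0.264 (adjusted p = 2.33e-10) has a small base. CD30 ligand, Tnfsf8, was already present at 66.2 and 68.4 CPM and reached 380 and 413 CPM. By 24 h it had fallen to 105 and 115 CPM, still above both resting libraries. Each of these 3 genes had its WT maximum at 8 h.

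Another 3 genes kept rising. OX40 RNA, Tnfrsf4, measured 16.7 and 14.2 CPM at 0 h, 250 and 214 CPM at 8 h, and 367 and 394 CPM at 24 h. Tnfsf11 encodes RANKL, best known as the signal that drives osteoclast formation. It measured 3.31 and 3.49 CPM, then 70.1 and 48.2 CPM, then 130 and 114 CPM. GITR RNA, Tnfrsf18, climbed less steeply, from 16.0 and 17.6 CPM to 50.2 and 44.4 CPM and 71.5 and 79.9 CPM. From 8 to 24 h these 3 were called higher in WT, by 0.71 ± 0.131 (Tnfrsf4), 1.04 ± 0.177 (Tnfsf11) and 0.68 ± 0.128 (Tnfrsf18) on the log2 scale. In the same interval 5 members were called lower: Tnfrsf9, Tnfsf8, Tnfsf14, Cd40lg and Cd27. The shares of all tested genes called were 24% higher and 19.3% lower.

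Cd27, the receptor for CD70 and the member most abundant in resting cells, stood at 269 and 287 CPM at 0 h, 380 and 397 CPM at 8 h, and 68.6 and 84.8 CPM at 24 h. It gained 0.48 ± 0.116 by 8 h and then fell by 2.34 ± 0.122 on the log2 scale (adjusted p = 1.37e-09). Cd40lg varied more between libraries of a group, at 109 and 74.8 CPM, then 176 and 156 CPM, then 96.2 and 122 CPM. Its fall from 8 to 24 h in WT (0.60 ± 0.203 on the log2 scale, adjusted p = 0.0364) was lost, at adjusted p up to 0.184, when either WT 8 h library, the first WT 24 h library or the first KO 8 h library was left out. Tnfrsf21 and Tnfsf4 stayed low in WT throughout. Tnfrsf21 (DR6, a receptor with a death domain) measured 0.827 and 0.421 CPM, then 12.7 and 10.8 CPM, then 11.9 and 9.63 CPM. Tnfsf4 (OX40 ligand, the partner of OX40) measured 0.354 and 0.421 CPM, 6 and 7 counts, at 0 h, then 6.40 and 9.73 CPM, then 7.54 and 13.2 CPM. Neither was called between 8 and 24 h in WT.

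**Figure D1:**
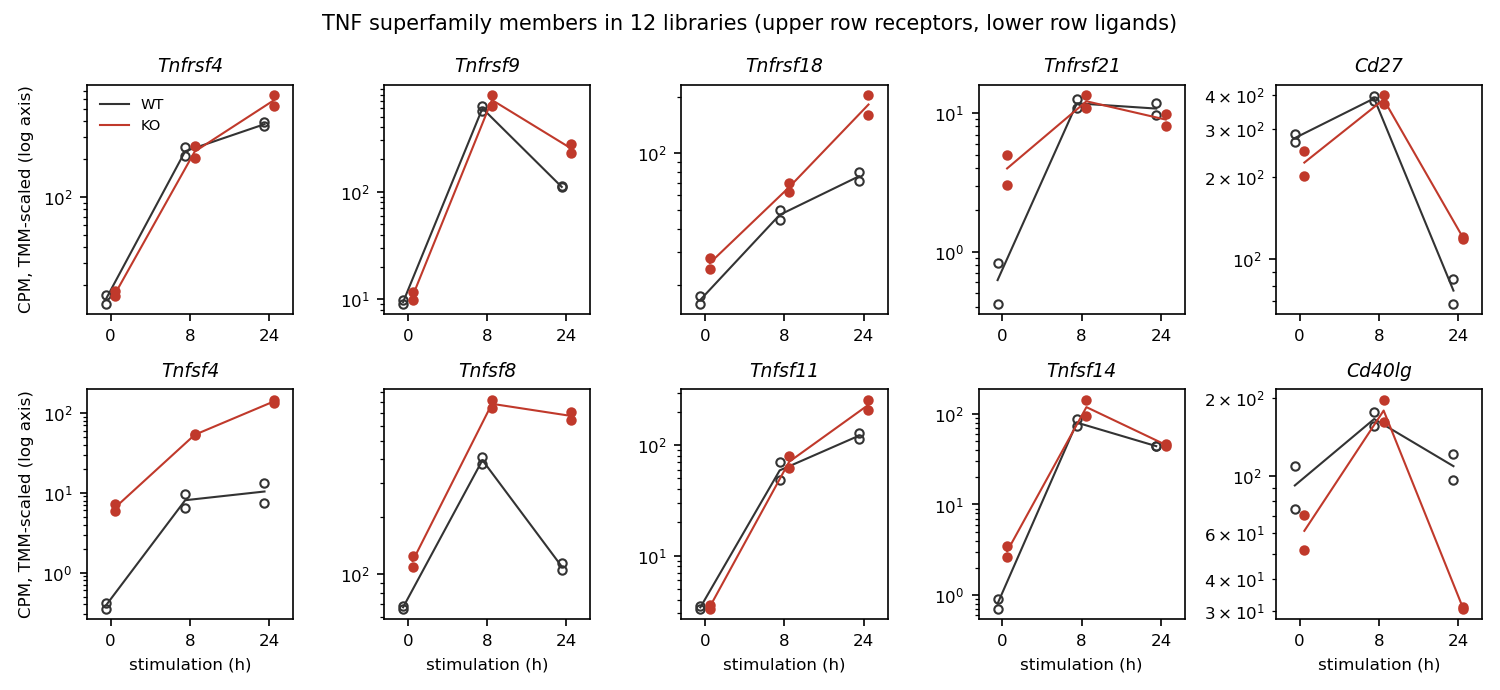
CPM of the 10 members in each of the 12 libraries (log axis) against hours of stimulation, WT as open black circles and KO as filled red circles, with lines through the mean of the 2 libraries of a group. The KO points of Tnfsf4 lie above the WT points at each time, those of Tnfsf8 part furthest from WT at 24 h, and those of Cd40lg drop to 30.7 and 31.1 CPM at 24 h.

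To compare genes with each other, CPM was divided by merged exon length in kb. Resting WT cells were led by Cd27 at 119 ± 5.42 CPM per kb (SD, n = 2) and Cd40lg at 73.5 ± 19.4, with Tnfsf8 next at 17.7 ± 0.403. At 8 h Tnfrsf9 led at 219 ± 17.4 CPM per kb. Tnfrsf4 at 170 ± 18.9 and Cd27 at 167 ± 5.02 followed and did not differ beyond their spread. At 24 h in WT Tnfrsf4 led at 279 ± 14.1 CPM per kb, with Cd40lg next at 87.5 ± 14.9. In KO cells at 24 h Tnfrsf4 again led, at 433 ± 61.4 CPM per kb, but Tnfsf8 was next at 177 ± 12.8, and Cd40lg ranked 8 of 10 at 24.7 ± 0.219, beside Tnfsf14 at 24.6 ± 0.816. Tnfsf4 ranked 9 in WT at 24 h (5.63 ± 2.17 CPM per kb) and 6 in KO (75.8 ± 5.03). Tnfrsf21 ranked last in all 6 groups.

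The comparison of genotypes asks how these genes differed between KO and WT libraries before and during activation. OX40 ligand showed the largest difference of the 10 members at each time. Tnfsf4 was at 5.89 and 7.27 CPM in KO cells at 0 h, 54.2 and 52.2 CPM at 8 h, and 146 and 133 CPM at 24 h. At each time both KO libraries lay above both WT libraries. In resting cells the log2 difference from WT was 4.06 ± 0.435 (adjusted p = 0.000469). It was 2.72 ± 0.237 after 8 h (adjusted p = 0.000184), and 24 h of stimulation gave 3.75 ± 0.237 (adjusted p = 4.23e-07). In bulk RNA a change in the share of cells that hold a transcript and a change in its amount per cell cannot be told apart. The second KO library had 2.55, 3.13 and 3.53 times the basophil and mast cell marker sum of the first at 0, 8 and 24 h, and 0.591, 0.708 and 0.597 times its sum of CD8 T and NK markers. Its Tnfsf4 level was 1.23, 0.963 and 0.911 times that of the first. The same ratios were 1.14, 0.981 and 0.96 for regulatory T cell markers, near those of Tnfsf4. They were 0.376, 0.626 and 0.869 for macrophage and dendritic cell markers. Neutrophil and granulocyte progenitor markers had 1, 2.62 and 3.9. Of 10 tested macrophage and dendritic cell markers, 2, 1 and 3 were higher in KO at 0, 8 and 24 h and none lower. Their sums were 41.7 to 111 CPM in KO against 24.3 to 38.2 in WT at 0 h. They were 33.7 to 53.8 against 19.3 to 21.2 CPM at 8 h, and 42.4 to 48.8 against 13.3 to 17.4 at 24 h. The part of all these cells in the Tnfsf4 result was not tested. In fits chosen after seeing the data, without the 3 KO libraries numbered 2, the Tnfsf4 difference was 3.90, 2.75 and 3.82, and without the 3 numbered 1 it was 4.23, 2.7 and 3.69. The gene was called in both cases at each time.

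CD30 ligand was the other member called at all 3 times. Tnfsf8 measured 110 and 125 CPM in KO at 0 h, 821 and 743 CPM at 8 h, and 710 and 641 CPM at 24 h. The KO libraries lay above the WT libraries at each time, and the later fall was smaller in KO: between 8 and 24 h the log2 change was -0.21 ± 0.101 in KO, with an adjusted p of 0.122, and -1.85 ± 0.106 in WT. The KO effect was 0.80 ± 0.105 in resting cells (adjusted p = 0.000489). After 8 h it was 0.98 ± 0.102 (adjusted p = 0.000112), and by 24 h it had reached 2.61 ± 0.108 (adjusted p = 3.08e-10). The growth of the effect from 8 to 24 h, tested as an interaction, was 1.63 ± 0.145 (adjusted p = 2.78e-06).

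Before stimulation 5 members were higher in KO and none lower, where 4.63% of tested genes were called higher and 1.07% lower. Beside Tnfsf4 and Tnfsf8 these were Tnfrsf21, Tnfsf14 and Tnfrsf18. Tnfrsf21 stood at 4.96 and 3.01 CPM in KO against 0.827 and 0.421 CPM in WT, a difference of 2.65 ± 0.355 (adjusted p = 0.000526). Tnfsf14 stood at 3.47 and 2.61 CPM against 0.709 and 0.903 CPM, a difference of 1.90 ± 0.348 (adjusted p = 0.00588). Tnfrsf18 stood at 28.0 and 24.6 CPM against 16.0 and 17.6 CPM, a difference of 0.64 ± 0.139 (adjusted p = 0.0123). In all 3 the KO libraries lay above the WT libraries. The calls of Tnfrsf18 and Tnfsf14 were lost when either WT 0 h library or the first KO 0 h library was left out, with adjusted p from 0.0536 to 0.111. At 0 h the sums of markers of memory-like T cells, granulocyte progenitors, and CD8 T and NK cells (175 to 296 CPM in KO against 106 to 114 in WT, 5 of 12 called higher) were also raised, and their part in these differences was not tested. Of regulatory T cell markers, which matter for GITR, 2 of 10 were higher and none lower, with sums of 175 to 200 CPM in KO and 146 to 171 in WT. The lineage factor Foxp3 was among the 8 not called, at 3.69 and 4.31 CPM in KO against 4.96 and 5.42 in WT. The part of regulatory T cells in the Tnfrsf18 difference was not tested.

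Of the 5 members not called at 0 h, Cd40lg (70.8 and 51.9 CPM in KO) and Cd27 (250 and 202 CPM) lay below the WT libraries, with log2 differences of -0.58 ± 0.207 (adjusted p = 0.163) and -0.30 ± 0.116 (adjusted p = 0.179). Tnfrsf4 (18.0 and 16.5 CPM), Tnfrsf9 (11.6 and 9.88 CPM) and Tnfsf11 (3.58 and 3.31 CPM) differed by 0.16, 0.18 and 0.02.

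At 8 h fewest members were called. Tnfsf4 and Tnfsf8 were called higher, 2 of 10 members, and none lower, where 1.9% of tested genes were called higher and 0.746% lower. At this time 7 of 15 markers of memory-like T cells were higher in KO (510 to 548 CPM in sum against 355 to 388). So were 2 of 12 that mark CD8 T or NK cells (78.6 to 111 CPM against 37.0 to 42.3). Of 10 regulatory T cell markers 3 were higher and none lower (1050 to 1070 CPM in sum against 903 to 986). The part of all these cells in these differences was not tested. Tnfrsf18 at 70.1 and 62.5 CPM and Tnfsf14 at 143 and 94.3 CPM lay above their WT libraries, with log2 differences of 0.49 ± 0.128 (adjusted p = 0.0590) and 0.57 ± 0.164 (adjusted p = 0.10). Tnfrsf18 was called by DESeq2 (adjusted p = 0.0487), and both were called without a low-count filter (0.00211 and 0.000205). With the replicate number as a block in the edgeR fit both were called as well (adjusted p = 0.0262 and 0.0246). Tnfrsf9, the most induced receptor, was at 795 and 633 CPM in KO and 0.26 ± 0.123 above WT, and Tnfsf11, at 79.9 and 61.8 CPM, differed by 0.26 ± 0.177. The KO libraries of Tnfsf11 overlapped with those of WT. Tnfrsf4 (257 and 204 CPM), Tnfrsf21 (13.5 and 10.8 CPM), Cd40lg (197 and 161 CPM) and Cd27 (400 and 370 CPM) differed by between -0.01 and 0.11, and their libraries overlapped with WT too. The rise from 0 to 8 h was called for all 10 members in KO too, where 28.6% of tested genes were called higher. The size of the rise was called different between genotypes for 1 member, Tnfrsf21, whose KO effect fell by 2.60 ± 0.433 on the log2 scale between 0 and 8 h (adjusted p = 0.00855), where 0.733% of tested genes were called in that direction. Without the second WT 0 h library this interaction had an adjusted p of 0.0700. For Tnfsf14 it was -1.33 ± 0.392 and not called (adjusted p = 0.168), but DESeq2 (adjusted p = 0.0298) and the fit without a low-count filter (0.000438) called it.

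By 24 h 7 members were higher in KO and 1 lower. At this time 17.9% of all tested genes were called higher and 20.7% lower, so calls were common in both directions. The median log2 difference over the 10 members was 0.79, against 0.02 over all tested genes. All 8 calls held in each of the 20 alternative analyses. At the same time 11 of 15 markers of memory-like T cells were higher in KO (sums of 1100 to 1240 CPM against 772 to 833 in WT), as were 6 of 12 genes that mark CD8 T or NK cells (179 to 300 CPM against 36.0 to 46.7), and their part in these differences was not tested. The second KO library of 24 h held 0.779 to 1.22 times the level of the first in the 10 members. Outside that range it held 3.53 times the basophil and mast cell marker sum, 3.9 times the neutrophil and granulocyte progenitor sum and 0.597 times the CD8 T and NK sum. Within that range were regulatory T cell markers at 0.96 times and macrophage and dendritic cell markers at 0.869 times. Memory-like T cell markers summed to 1240 CPM in the first and 1100 in the second. Whether the members followed any of these cells was not tested.

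Among the receptors, Tnfrsf18 stood at 204 and 159 CPM in KO at 24 h, above the 71.5 and 79.9 CPM of WT, a log2 difference of 1.26 ± 0.126 (adjusted p = 1.99e-06). An antisense gene, Gm16008, covers 27.2% of the exonic bases of Tnfrsf18. It did not exceed 4.25 CPM in any library, and the labels do not say whether the counting used strand. Tnfrsf9 was at 278 and 227 CPM against 110 and 112 CPM, a difference of 1.19 ± 0.127 (adjusted p = 3.75e-06). It had fallen from its 8 h level in both genotypes, by 1.5 ± 0.126 in KO and 2.43 ± 0.131 in WT, and the difference between these falls was 0.93 ± 0.176 (adjusted p = 0.00217). Tnfrsf4 reached 650 and 532 CPM against 367 and 394 CPM, a difference of 0.64 ± 0.130 (adjusted p = 0.00135). Cd27 was at 119 and 121 CPM against 68.6 and 84.8 CPM, a difference of 0.65 ± 0.119 (adjusted p = 0.000572). For these 4 receptors the KO libraries lay above the WT libraries. Tnfrsf21 was not called, at 8.06 and 9.87 CPM against 11.9 and 9.63 CPM. At 24 h 5 of 10 regulatory T cell markers were higher in KO and none lower, with sums of 1200 to 1250 CPM against 888 to 943 in WT, most of it from Il2ra. Foxp3 was at 10.9 and 14.0 CPM in KO and 12.9 and 13.4 in WT. The part of regulatory T cells in these differences was not tested.

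Among the ligands, Tnfsf11 reached 258 and 207 CPM in KO at 24 h against 130 and 114 CPM in WT, a log2 difference of 0.93 ± 0.174 (adjusted p = 0.00135). Tnfsf14, at 44.4 and 46.6 CPM against 44.4 and 43.7 CPM, differed by 0.05 and was not called. Cd40lg was the member that was lower: 30.7 and 31.1 CPM in KO against 96.2 and 122 CPM in WT. Its log2 difference was -1.82 ± 0.215 (adjusted p = 1e-04), and the KO level at 24 h was below that of each resting library of either genotype, the lowest of which was 51.9 CPM.

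**Figure D2:**
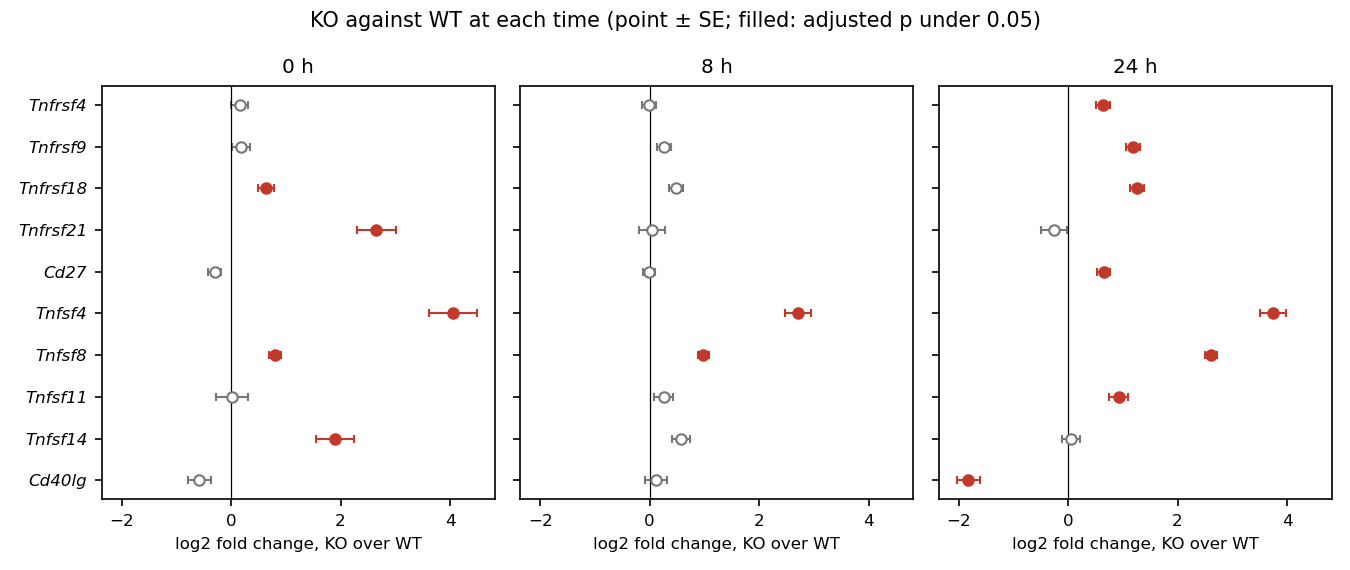
Log2 fold change of KO over WT for each member at 0, 8 and 24 h, with bars of 1 SE, receptors in the upper 5 lines and ligands in the lower 5, filled where the adjusted p was under 0.05. Filled points number 5 at 0 h, 2 at 8 h and 8 at 24 h, and Cd40lg at 24 h (-1.82) is the single filled point to the left of 0.

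Between 8 and 24 h KO cells raised Tnfrsf4, Tnfrsf18, Tnfsf4 and Tnfsf11, 4 of 10 members, and lowered Tnfrsf9, Tnfsf14, Cd40lg and Cd27. The Tnfsf4 rise (1.39 ± 0.209, adjusted p = 0.000430) was lost without the 3 KO libraries numbered 1 (adjusted p = 0.0814) or the 3 numbered 2 (0.0746). Of all tested genes 18.9% were called higher and 15.6% lower in that interval. A growth of the KO effect between 8 and 24 h was called for 5 members (Tnfsf8, Tnfrsf9, Tnfrsf18, Cd27 and Tnfrsf4) and a move down for Cd40lg, by -1.93 ± 0.293 (adjusted p = 0.00171). Calls of Tnfrsf4, Tnfrsf18 and Cd27 were lost without single libraries (adjusted p up to 0.146), and that of Cd40lg without the KO libraries of either number (0.0837 and 0.0647). Tnfsf4 (1.03 ± 0.324, adjusted p = 0.0587) and Tnfsf11 (0.67 ± 0.247, adjusted p = 0.0988) were not called. The edgeR fit with the replicate number as a block called both (adjusted p = 0.0219 and 0.00506). Across all tested genes this interaction was called in 5.49% as higher and 8.96% as lower. Set against resting cells, the KO effect at 24 h was higher for Tnfsf8, Tnfrsf9, Cd27 and Tnfrsf18 and lower for Tnfrsf21, Tnfsf14 and Cd40lg, where 11.9% of tested genes were called higher and 14.8% lower. These comparisons share libraries with the ones above.

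Placed in order, the groups show how far the KO cells were from WT. For Tnfsf8 the lowest group was resting WT, followed by WT at 24 h, whose libraries overlapped with resting KO (105 to 115 against 110 to 125 CPM). Stimulated WT at 8 h came next, and KO at 24 h (641 to 710 CPM) and KO at 8 h (743 to 821 CPM) were highest. For Tnfrsf9 KO at 24 h (227 to 278 CPM) lay between WT at 24 h (110 to 112 CPM) and WT at 8 h (563 to 630 CPM). Cd27 had the same arrangement, with KO at 24 h (119 to 121 CPM) above WT at 24 h (68.6 to 84.8 CPM) and below every other group. For Tnfrsf4, Tnfrsf18, Tnfsf11 and Tnfsf4, KO at 24 h was the highest of the 6 groups and overlapped with no other. For Cd40lg it was the lowest and overlapped with no other.

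Repeat elements inside introns gave a separate readout of the same genes, since a deposited table counts reads per repeat locus. Reads there come from unspliced RNA or from transcripts that run through the intron, and were summed per member with no test. Loci were found in the introns of 8 members, and Tnfrsf4 and Tnfrsf18 had none. In Tnfrsf9 (62 loci) the counts were 22 and 29 in WT at 0 h, 1094 and 1012 at 8 h, and 199 and 194 at 24 h. In KO they were 8 and 27, 1288 and 1414, and 454 and 376. The introns of Tnfrsf9 overlap those of Camta1 on the other strand, so some of these reads may belong to that gene. In Tnfsf8 (14 loci) WT had 101 and 104 counts at 0 h, 324 and 381 at 8 h, and 137 and 89 at 24 h, and KO had 175 and 273, 732 and 1020, and 941 and 894. At 24 h the KO counts of Tnfsf8 lay within the range of the 8 h counts, while 1 WT count lay below and 1 above the resting counts. In Tnfsf4 (20 loci) WT had 0 and 0, 4 and 6, then 7 and 1 counts, and KO had 6 and 9, 28 and 20, then 48 and 63. In Cd40lg (13 loci) WT had 303 and 100 counts at 0 h, 144 and 135 at 8 h, and 67 and 59 at 24 h. KO had 254 and 200, 143 and 162, then 26 and 32. From 0 to 8 h these Cd40lg counts fell in KO and stayed within the resting range in WT. The gene counts of Cd40lg rose in both genotypes over that interval, by 1.54 in KO and 0.85 in WT on the log2 scale. Tnfsf11 (21 loci) had 55 and 19 counts in WT and 108 and 86 in KO at 24 h. Cd27 (3 loci) had 86 and 96 in WT and 200 and 191 in KO at 24 h. Vamp1 overlaps Cd27 on the other strand, so some of these reads may belong to Vamp1. Tnfsf14 (7 loci) had 10 and 25 in WT and 16 and 15 in KO at 24 h, and the 101 loci of Tnfrsf21 summed to at most 17 counts in any group.

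**Figure D3:**
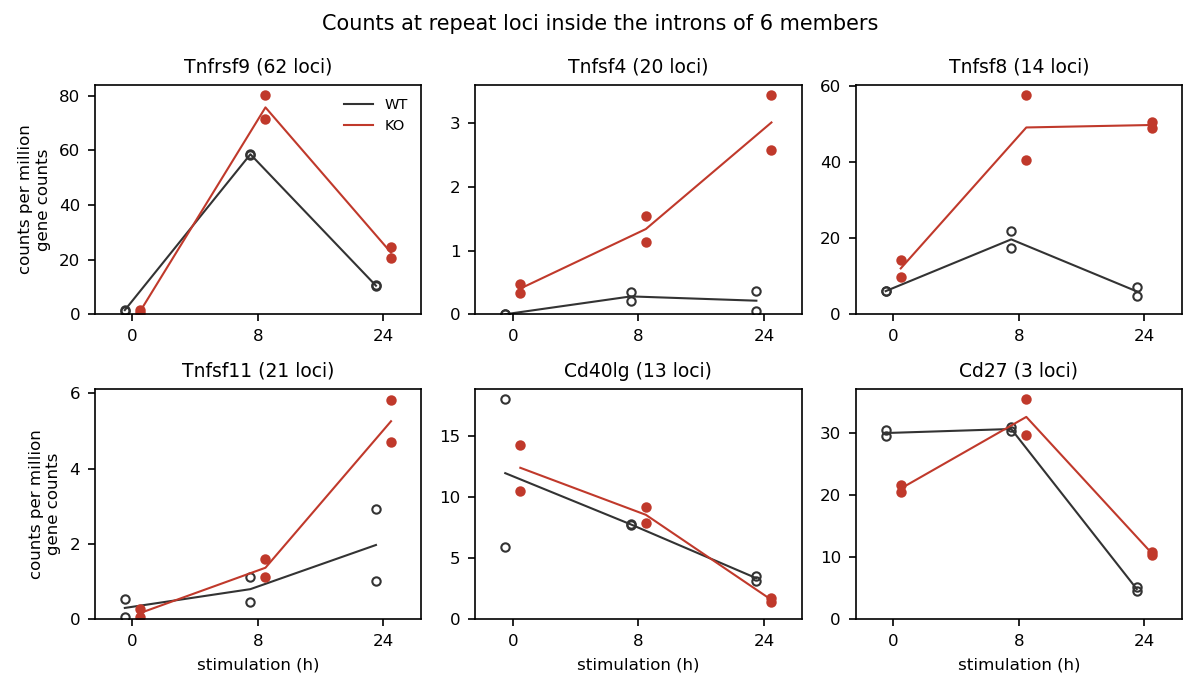
Counts at repeat loci inside the introns of 6 members, as CPM of the library's gene counts (linear axes from 0, different for each panel), against hours of stimulation, WT as open black circles, KO as filled red circles, lines through the mean of 2 libraries. At 24 h the KO points of Tnfsf8, Tnfsf4, Tnfsf11, Tnfrsf9 and Cd27 lie above the WT points and those of Cd40lg below.

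The rest of the superfamily was described from lists of names. Of 13 other ligand genes 8 could be tested, and of 23 other receptor genes 18. At 0 h Tnfsf9, the ligand of CD137, was higher in KO by 1.06 ± 0.289 (0.955 ± 0.0971 CPM in WT and 1.99 ± 0.165 in KO, SD, n = 2). So was the lymphotoxin beta receptor Ltbr, by 2.51 ± 0.470 (0.683 ± 0.37 CPM in WT and 3.94 ± 0.187 in KO). At 8 h Tnfsf9 (0.97 ± 0.227), the death receptor Fas (0.75 ± 0.135) and the TRAIL receptor Tnfrsf10b (1.04 ± 0.172) were higher, and the decoy receptor Tnfrsf22 was lower, by -0.51 ± 0.117. At 24 h, when 17.9% of all tested genes were called higher and 20.7% lower, 3 ligands and 11 receptors were higher and 1 receptor lower. Of these 15 calls, Cd70 and Eda2r passed the low-count filter only through the KO 24 h libraries, so their place among the tested genes depended on being high there. The median over the receptors was 0.96 on the log2 scale and over the ligands 0.24. Cd70, the ligand of CD27, was higher by 3.33 ± 0.485 (6.02 ± 0.964 CPM in KO and 0.593 ± 0.380 in WT), Ltb by 0.35 ± 0.106 and Lta by 0.32 ± 0.116. Fas stood at 122 ± 13.9 CPM in KO and 20.1 ± 2.85 in WT, a difference of 2.60 ± 0.139 (adjusted p = 3.07e-09). Tnfrsf10b differed by 1.64 ± 0.173, the TNF receptor Tnfrsf1b by 1.05 ± 0.104, and Relt by -0.86 ± 0.130. Both receptors of LIGHT (Tnfsf14) were higher, Ltbr by 2.65 ± 0.555 (adjusted p = 0.00158) and Tnfrsf14 (HVEM) by 0.62 ± 0.224 (adjusted p = 0.0498). Ltbr was near the floor, at 1.73 ± 0.907 CPM in KO (64 counts in 2 libraries) and 0.27 ± 0.0755 in WT (10 counts). Which cells held it was not tested. Partners of 3 other members were not called at that time. Tnfsf9, the ligand of CD137, stood at 9.73 ± 1.26 CPM in KO and 10.1 ± 0.377 in WT. Tnfrsf8 (CD30, the receptor for Tnfsf8) was at 1.76 ± 0.664 and 3.78 ± 1.67 CPM, and Cd40, the receptor for CD40 ligand, at 2.74 ± 1.97 and 1.11 ± 0.111.

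**Figure D4:**
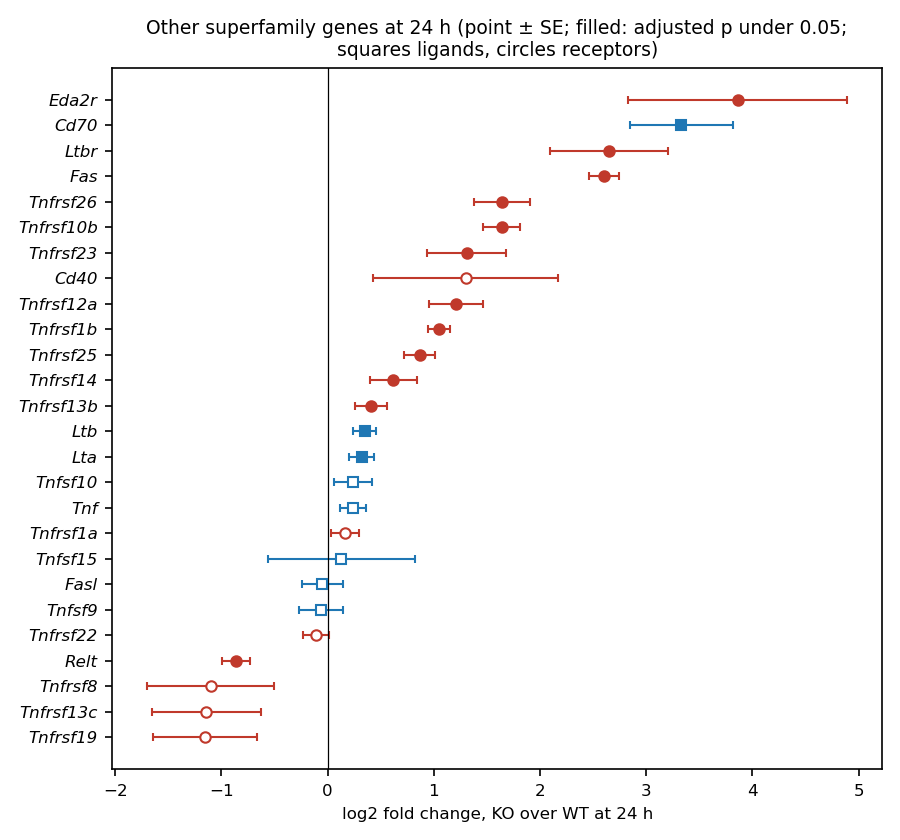
Log2 fold change of KO over WT at 24 h for the 26 other superfamily genes that could be tested, with bars of 1 SE, squares for ligands and circles for receptors, filled where the adjusted p was under 0.05. Fas (2.60) and Cd70 (3.33) lie far to the right, and Relt (-0.86) is the only filled point to the left of 0.

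Downstream of the receptors, 29 adaptors and signalling enzymes were tested. At 0 h the TRAF adaptor Traf5 was lower in KO by -0.55 ± 0.123, and at 8 h the kinase Map3k7 was higher by 0.39 ± 0.0793. At 24 h 16 were higher and 5 lower, with a median of 0.33. At that time 17.9% of all tested genes were called higher and 20.7% lower. Traf1, an adaptor that is itself an NF-kB target, differed by 1.06 ± 0.111, the ubiquitin ligase Birc2 by 0.91 ± 0.0970 and Traf6 by 0.85 ± 0.0989. Traf5 again went the other way, at 10.9 ± 2.11 CPM in KO and 26.4 ± 0.716 in WT (-1.28 ± 0.136). Of 11 NF-kB subunits and inhibitors, 1 was higher at 0 h (Bcl3, 0.70 ± 0.173), none was called at 8 h, and 9 were higher at 24 h, with a median of 0.63. Nfkb2 differed by 1.34 ± 0.114, Bcl3 by 1.03 ± 0.179, Nfkbib by 0.85 ± 0.133 and Nfkb1 by 0.70 ± 0.0997.

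Across the 12 libraries the likeness of members was described by Pearson's r of log2 CPM with no test, since all points share the same 6 groups and the large step from rest to stimulation. Tnfrsf4 and Tnfsf11 had r = 0.997, Tnfrsf9 and Tnfsf14 r = 0.964, and the lowest of the 45 pairs was Tnfrsf18 with Cd27, at -0.481. Cd27 and Cd40lg had r = 0.538 with each other and less with every other member, while pairs among the other 8 had r of at least 0.698. Among 9251 other genes searched, Bcl2l1, which encodes the survival protein BCL-XL, was nearest both to Tnfrsf4 (r = 0.999) and to Tnfsf11 (r = 0.998), followed for Tnfrsf4 by Vps50 (0.997) and Ghitm (0.995) and for Tnfsf11 by Plagl2 (0.995) and Raph1 (0.994). Nearest to Tnfsf4 were Psrc1 (0.996), Phlda3 (0.983) and Serpine2 (0.959), and to Tnfsf8 Pvt1 (0.987), the apoptosis effector Bax (0.983) and Slc30a4 (0.977). Tnfrsf9 was nearest to the costimulatory receptor gene Slamf1 (0.996), Btbd9 (0.995) and Tma16 (0.995), and Tnfrsf18 to Tmbim1 (0.989), Axl (0.989) and Atf5 (0.983). Tnfsf14 was nearest to Mrrf (0.996), Alcam (0.990) and Wars (0.988), and Tnfrsf21 to Prodh (0.981), Spire1 (0.978) and Chsy1 (0.974). Cd27 was nearest to Gripap1 (0.986), Cpsf7 (0.977) and the T cell receptor gene Trac (0.974). Cd40lg had the least close neighbours, Tinf2 (0.949), Aste1 (0.944) and Sf1 (0.932).

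In the genome (mm10, GENCODE M21 annotation) the members lie on 6 chromosomes. Tnfrsf9 (chr4:150914562-150946102) and Tnfsf8 (chr4:63831308-63861347) are on chromosome 4, Tnfrsf21 (chr17:43016555-43089189) on 17, Tnfsf4 (chr1:161395409-161418410) on 1, Tnfsf11 (chr14:78277445-78308043) on 14 and Cd40lg (chrX:57212143-57224042) on X. Also on chromosome 4, Tnfrsf4 (chr4:156013843-156016612) and Tnfrsf18 (chr4:156026164-156028895) lie 9551 bases apart on the same strand. Both rose through 24 h in both genotypes and both were higher in KO at 24 h, Tnfrsf18 also at 0 h. Cd27 (chr6:125232622-125237010) lies 69560 bases from Ltbr, and Tnfsf14 (chr17:57189492-57194177) lies 39714 bases from Cd70. In the second pair only Cd70 was called between KO and WT at 24 h.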

How the data were processed

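Per the labels' protocols, ribosomal RNA was removed from total RNA and stranded libraries were read as pairs of 150 bases. The submitters' processing notes list mm10 as the build, with STAR 2.7.1a and fastp 0.12.4. How reads were counted (tool, strand, reads with several matches) was not given in those sources. The authors deposited whole-number counts, not normalized, in 2 tables (genes, repeat loci) with a column per library. Library totals limit the precision of low counts, and the spread was estimated over all 6 groups of 2.

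The 12 libraries were fitted together with edgeR 4.0.16 (R 4.3.3): filterByExpr (count 10, total 15) kept 15679 genes and removed 38553, TMM factors, 1 mean per group, robust quasi-likelihood tests, 6 residual degrees of freedom, Benjamini-Hochberg adjustment over all genes, threshold 0.05. The 10 contrasts were KO against WT at each time, successive times within a genotype, and changes of the KO effect. SE is the log2 fold change over the root of F. The fit was tested on simulated data. Alternatives were DESeq2 1.42.0, other scaling and filters, libraries left out, a replicate block and single-time fits. Members and gene lists were chosen with earlier results of these data known. The text names all members, up to 4 called genes per other list and contrast by smallest p, Ddx55, and the 3 genes (mean CPM at least 5, prior count 2) most correlated with each member. Outside this rule the text also names ligands and receptors that partner members, some cell markers such as Foxp3 and Tpsb2, and Eda2r. Genes that overlap or lie near members are named too. Promoter windows came from RefSeq.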

Additional observations from a re-analysis of the deposited data

Results flagged for a closer look

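Changes of the KO effect between time points were tested by the interaction terms of edgeR's quasi-likelihood fit (log2 scale, ± SE, Benjamini-Hochberg adjusted p over all tested genes). Of the 10 members 1 was called from 0 to 8 h, 6 from 8 to 24 h and 7 from 0 to 24 h. These contrasts share libraries. Of all tested genes 0.995% were called from 0 to 8 h, 14.4% from 8 to 24 h and 26.7% from 0 to 24 h. From 0 to 8 h the KO effect changed for Tnfrsf21 (-2.60 ± 0.433, adjusted p = 0.00855).

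From 8 to 24 h it changed for Tnfsf8 (1.63 ± 0.145, adjusted p = 2.78e-06), Cd40lg (-1.93 ± 0.293, adjusted p = 0.00171), Tnfrsf9 (0.93 ± 0.176, adjusted p = 0.00217), Tnfrsf18 (0.77 ± 0.179, adjusted p = 0.00868), Cd27 (0.66 ± 0.165, adjusted p = 0.0146) and Tnfrsf4 (0.64 ± 0.184, adjusted p = 0.0296). The last of these was lost, with adjusted p from 0.0611 to 0.146, when the first WT 8 h library, either WT 24 h library, the second KO 8 h library or the first KO 24 h library was left out. Tnfrsf18 was lost without the first library of WT 8 h, WT 24 h or KO 24 h (0.0501 to 0.0575), and Cd27 without the second WT 8 h or the first WT 24 h library (0.0643 and 0.0887). Cd40lg was lost when the 3 KO libraries of 1 number were left out together (0.0837 without those numbered 1, 0.0647 without those numbered 2).

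From 0 to 24 h it changed for Tnfsf8 (1.81 ± 0.148, adjusted p = 5.57e-07), Tnfrsf21 (-2.92 ± 0.434, adjusted p = 0.000171), Cd27 (0.94 ± 0.166, adjusted p = 0.000710), Tnfrsf9 (1.01 ± 0.203, adjusted p = 0.00199), Tnfsf14 (-1.85 ± 0.390, adjusted p = 0.00365), Cd40lg (-1.24 ± 0.295, adjusted p = 0.0121) and Tnfrsf18 (0.62 ± 0.186, adjusted p = 0.0243). Tnfrsf18 was lost without the second WT 0 h, first WT 24 h, second KO 0 h or first KO 24 h library (0.0701 to 0.145), and Cd40lg without the 3 KO libraries of either number (0.104 and 0.199). Tnfrsf21 rests on 14 and 7 counts in resting WT. The sums of other cell types' markers in KO libraries also differed between times, and their part in these values was not tested.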

How the results depend on the processing

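Of 100 member values (10 members, 10 contrasts) 65 were called, where 0.995% to 61.9% of all tested genes were called depending on the contrast, and no called value changed direction in any alternative. The 8 calls at 24 h, the 2 at 8 h and the rises to 8 h in both genotypes were kept in each alternative run, as were 3 of 5 at 0 h (not Tnfrsf18 and Tnfsf14). The number of libraries per group (2) and counts under 20 for Tnfsf4, Tnfrsf21 and Tnfsf14 in resting WT limit the precision of their folds. Leaving out the KO libraries of 1 number was chosen after seeing the data. Libraries left alone in a group are assumed to vary like the other groups. For every change below the cause was not tested.

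With all libraries, the members called were 5 at 0 h, 2 at 8 h, 1 for the change from 0 to 8 h and 6 for that from 8 to 24 h. With libraries left out they ranged from 3 to 6, 2 to 5, 0 to 2 and 3 to 6. The genes called were 893, 415, 156 and 2265, and ranged from 348 to 1895, 103 to 1215, 48 to 317 and 1427 to 2789. DESeq2 called 638 genes at 8 h, and 292 genes and 2 members for the change from 0 to 8 h. Without a filter on low counts these were 862 genes and 4 members at 8 h, and 445 genes and 4 members for the change. Only the 4 libraries of 0 h gave 464 genes.

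Equal replicate numbers were not taken to pair the libraries. This was because only 11 of 15 correlations of same-numbered deviations from group means exceeded 0.1 (range 0.0235 to 0.421, all positive). Within WT they were 0.421, 0.208 and 0.299, and within KO 0.356, 0.236 and 0.39. Those at or below 0.1 were all between genotypes. Libraries of a genotype with equal numbers may share cells, which the labels do not say, and the tests treat them as independent. The block fits the same shift in both genotypes, so a shift particular to each was not modelled. With the replicate number as a block, 4 members and 669 genes were called at 8 h, with Tnfrsf18 (adjusted p = 0.0262) and Tnfsf14 (0.0246) added. Members called for the change from 8 to 24 h rose to 8, and from 0 to 24 h to 9.

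Uncalled values near 0 changed sign. With libraries left out, the log2 differences at 8 h ranged from -0.19 to 0.16 for Tnfrsf4, -0.13 to 0.21 for Tnfrsf21, -0.05 to 0.25 for Cd40lg and -0.07 to 0.05 for Cd27. For Tnfsf11 at 0 h the range was -0.03 to 0.07. From 8 to 24 h in WT the ranges were -0.30 to 0.02 for Tnfrsf21 and -0.10 to 0.70 for Tnfsf4. For the change from 0 to 8 h they were -0.10 to 0.22 for Tnfrsf9, -0.01 to 0.54 for Tnfsf11 and -0.01 to 0.34 for Tnfsf8. From 0 to 24 h the range was -0.67 to 0.13 for Tnfsf4, and from 8 to 24 h -0.62 to 0.00 for Tnfrsf21. In the fit of the 4 libraries of 8 h, Tnfrsf4 was at 0.01 and Cd27 at 0.00.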

Other observations

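Of the 8 other superfamily ligands tested, 4 rose and 2 fell from 0 to 8 h in WT, and of the 18 other receptors 5 rose and 5 fell. Of all tested genes 28.3% rose and 33.6% fell, so the receptors' counts were not above the background. Tnf, the founding inflammatory cytokine of the family, rose by 4.06 ± 0.143 on the log2 scale (SE, edgeR adjusted p = 1.31e-11), the death ligand Fasl by 2.69 ± 0.194 and the lymphotoxin gene Lta by 2.67 ± 0.128, while TRAIL (Tnfsf10) fell, with a change of -3.11 ± 0.198. Among the receptors Tnfrsf1b rose by 1.73 ± 0.107, and Tnfrsf25 (-1.86 ± 0.150), Tnfrsf13b (-1.59 ± 0.162) and Relt (-1.34 ± 0.126) fell. In KO cells the same contrast gave 4.39 ± 0.145 for Tnf, 2.92 ± 0.196 for Fasl, 3.20 ± 0.130 for Lta and -2.62 ± 0.189 for Tnfsf10.

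Of the NF-kB subunits and inhibitors, 8 of 11 rose from 0 to 8 h in WT and 1 fell, with Nfkb2 at 2.77 ± 0.121, Rel at 2.68 ± 0.131 and Nfkb1 at 2.58 ± 0.105. From 8 to 24 h 7 of them fell in WT, among them Relb (-1.04 ± 0.104) and Nfkb1 (-0.93 ± 0.10), where 19.3% of all tested genes were called lower. In KO 4 fell and 3 rose, with Nfkb2 at 0.81 ± 0.113, where 15.6% of all tested genes were called lower and 18.9% higher. The difference between the genotypes in that interval was 1.28 ± 0.160 for Nfkb2 (edgeR adjusted p = 7.04e-05) and 0.65 ± 0.140 for Nfkb1 (adjusted p = 0.00544).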
